A study of Capra hircus with 6 samples.

Results

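The 10 genes described here encode transcription factors known for building or maintaining the pinealocyte, the melatonin-secreting cell of the pineal gland: CRX, OTX2, NEUROD1, LHX4, LHX3, PAX6, BSX, RAX, ISL2 and LHX9. They were chosen by gene symbol from a table of raw read counts per gene, in which each of the 10 symbols matched 1 of 28244 genes. All 10 passed the filter on low counts that left 16588 genes for testing. The libraries were made from pineal glands of untreated female goats (Capra hircus) at 2 stages, prepuberty and puberty, with 3 libraries per stage. The pubertal goats had an inflamed vulva and mature follicles in ovarian histology. Age, breed and hour of collection are not in the labels. Nor do they state whether different animals gave the 3 libraries of a stage, and the p-values therefore reflect library-to-library spread, some of which could be technical.

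The pineal gland and the retinal photoreceptor share much of their gene regulation. In mice OTX2 specifies the pinealocyte lineage and acts upstream of CRX, a related homeodomain factor, and both bind promoters of melatonin synthesis and phototransduction genes. NEUROD1 is a basic helix-loop-helix factor of neurons and photoreceptors. LHX3, LHX4, LHX9 and ISL2 are LIM homeodomain factors, PAX6 is the paired-box factor of eye and forebrain development, BSX is a homeodomain factor of the hypothalamus and pineal gland, and RAX acts in early eye and hypothalamic development. Loss of PAX6, OTX2 or LHX9 in mice leaves the gland absent or small.

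Library totals ran from 18864451 to 20971065 counts, so the libraries were of similar depth. Libraries of the same stage had a chi-square of 17.4 to 38.8 per degree of freedom, far above the sampling noise, so none was a copy of another. The gland was recognisable by its enzymes. TPH1, which encodes the first enzyme of melatonin synthesis, ranked 41 among 21343 protein-coding genes by mean FPKM (reads scaled by listed gene length and library depth, the authors' values). ASMT, which encodes the last enzyme, ranked 56. Log2 fold change, puberty over prepuberty, fell with listed gene length (Spearman's rho -0.28 across 16588 genes, which are not independent, given as a description). Calls among the members, their cofactors, other lineage regulators and target genes are given with and without offsets that remove it. Markers of other cells are given without offsets only.

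CRX was by far the most abundant of the 10 transcripts per unit of length. It measured 1002, 921 and 1101 FPKM in the prepuberty libraries and 1000.3, 810.4 and 975.5 FPKM in the puberty libraries. That mean of 969 ± 97.1 FPKM (SD, n = 6 libraries) placed it at rank 68 among protein-coding genes, close to TPH1 and ASMT. ISL2 followed with 277.8, 283 and 294 FPKM in prepuberty and 447, 390.2 and 379.5 FPKM in puberty. NEUROD1 measured 266, 337 and 313 FPKM and then 273, 207 and 316 FPKM. ISL2 ranked 279 and NEUROD1 345 among protein-coding genes.

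LHX4 and OTX2 formed the next step, at rank 635 and 704. LHX4 measured 174, 139 and 159 FPKM in prepuberty and 182, 158 and 199 FPKM in puberty. OTX2 measured 152, 166 and 159 FPKM and then 155, 165 and 131 FPKM. BSX stood lower at 83.3, 97.0 and 68.0 FPKM and then 80.9, 60.8 and 89.4 FPKM. LHX9 measured 49.0, 46.3 and 40.2 FPKM and then 44.7, 38.1 and 41.5 FPKM, and PAX6 measured 28.8, 27.4 and 27.0 FPKM and then 32.1, 32.9 and 23.9 FPKM. The stages overlapped for each of these 5 genes, and LHX9 and PAX6 ranked 2769 and 4054.

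RAX and LHX3 were the lowest of the 10, at rank 13038 and 14987 among 21343 protein-coding genes. RAX measured 1.02, 0.88 and 1.47 FPKM in prepuberty and 1.95, 2.19 and 2.02 FPKM in puberty, from 19 to 43 reads. LHX3 measured 0.39, 0.61 and 0.44 FPKM and then 0.20, 0.51 and 0.25 FPKM, from 11 to 34 reads. The end of the gene QSOX2 lay 84 nt from LHX3 on the same strand of chromosome 11 in the authors' table, with a mean of 1323 reads. Whether reads that run on from it add to LHX3 was not tested. No gene listed in that table overlapped any of the 10 members.

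**Figure D1:**
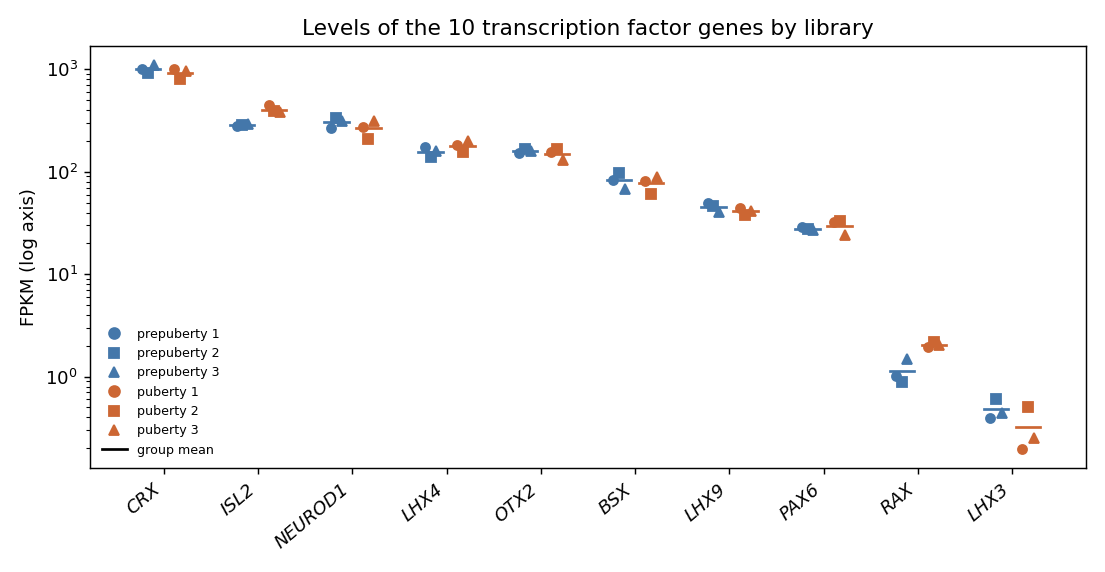
Authors' FPKM (log axis) of the 10 genes in order of mean level. Each point is 1 library, marked by replicate number and coloured by stage, and bars are group means (n = 3); CRX lies near 969 FPKM, the next 7 genes between 28.7 and 345 FPKM on average, and RAX and LHX3 at 1.59 and 0.40 FPKM.

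Neighbours in this order were compared within each library, on log2(FPKM + 0.1). In 7 of the 9 neighbouring pairs the upper gene was the higher one in all 6 libraries. Each such pair had an exact two-sided sign-flip p of 0.031, the smallest that 6 libraries allow (adjusted p = 0.040 over the 9 pairs). The order came from these same values, so the p-values only describe how steady each step was and add no independent evidence. CRX exceeded ISL2 by 2.08-fold to 3.75-fold and NEUROD1 exceeded LHX4 by 1.31-fold to 2.41-fold. The widest step, 11.8-fold to 31.1-fold, separated PAX6 from RAX. ISL2 and NEUROD1 did not differ beyond their spread, with ISL2 higher in 4 of 6 libraries (exact p = 0.28, adjusted p = 0.32). Nor did LHX4 and OTX2, with LHX4 higher in 3 of 6 (exact p = 0.50, adjusted p = 0.50). The order depends on length for OTX2, whose listed model of 3428 nt is the longest of the 10. In CPM (reads scaled to library size, not divided by length) OTX2 stood second, and 4 of 9 neighbouring pairs were ordered in every library. NEUROD1, at 1071 nt on chromosome 2 (121421373 to 121422443), has a listed length equal to its span, so the model is a single exon.

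Set beside other genes with the same annotated domain, members took the highest places. Of 151 genes that the authors' table marks with a homeobox or Otx domain, 102 had reads, and CRX was first in all 6 libraries. LHX4 and OTX2 held places 2 and 3 in either order and BSX place 4 in all 6 libraries. LHX9 took place 5 by mean level but ranged from place 5 to place 8, where ADNP, MSX1 and SEBOX came at similar levels. RAX and LHX3 ranked 30 and 47 by mean. Among 85 genes marked with a helix-loop-helix domain NEUROD1 was first by mean level and first or second in each library. ISL2 and PAX6 carry other domain marks in that table (LIM and PAX) and were not ranked in this way.

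Close relatives of the members differed widely in level. NEUROD4, a relative of NEUROD1, was second among the helix-loop-helix genes at 214 ± 23.9 FPKM (SD, n = 6), whereas NEUROD2 was listed at 0 in 4 libraries and NEUROD6 in all 6. OTX1, a relative of OTX2 and CRX, had 6.80 ± 1.42 FPKM. ISL1, a relative of ISL2 that acts in motor neurons and the retina, had 3.73, 5.80 and 9.89 FPKM in prepuberty and 5.05, 1.28 and 1.90 FPKM in puberty, below ISL2 in every library. LHX4 exceeded LHX3, its nearest relative among the members, by 229-fold to 922-fold, on 11 to 34 LHX3 reads a library. RAX2, a photoreceptor relative of RAX, had 8.64 ± 3.54 FPKM and was above RAX in all 6 libraries. PAX4, which acts in the pancreas and retina beside PAX6, was listed at 0 throughout.

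**Figure D2:**
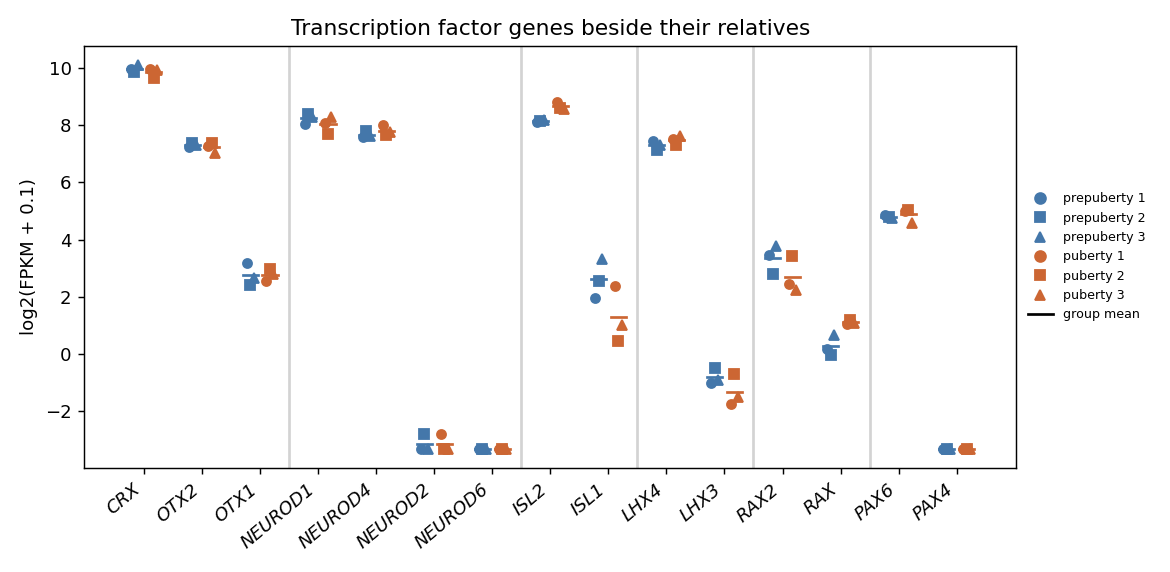
Levels as log2(FPKM + 0.1) of members beside related genes, grouped by grey lines. Each point is 1 library and bars are group means (n = 3); OTX1, ISL1, LHX3 and PAX4 lie below their relatives, NEUROD4 lies close to NEUROD1, and NEUROD2, NEUROD6 and PAX4 sit at the floor.

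Between the stages ISL2 was the single member that rose, and no member fell (edgeR's quasi-likelihood test, Benjamini-Hochberg adjusted p under 0.05 over all 16588 genes). Of all tested genes 5.85% rose and 5.64% fell, 11.5% in either direction, so 1 call among 10 genes is a share close to the background. At an unadjusted p under 0.05, 2 members were higher and 0 lower, beside 14.5% and 14.5% of all tested genes, and DESeq2 and limma-voom also called 0 members lower. The median log2 fold change of the 10 was -0.10, against 0.01 for all tested genes. In bulk tissue fewer cells of a type and less RNA per cell cannot be told apart.

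ISL2 lies on chromosome 21 (31183330 to 31188290), with a listed length of 1080 nt, and was higher in each puberty library than in any prepuberty library. It went from 309 ± 8.92 to 439 ± 39.7 TMM-scaled CPM (SD, n = 3 per stage), a 1.42-fold rise (log2 fold change 0.51, SE 0.09, 95% interval 0.30 to 0.72, edgeR adjusted p = 0.016). The prepuberty libraries lay within 301 to 319 CPM and the puberty libraries within 411 to 485 CPM. The fold stayed between 0.43 and 0.55 on the log2 scale when any 1 library was left out. Without prepuberty replicate 1 the adjusted p was 0.065, in a fit where edgeR called 0 genes of 16821 in all, with 3924 at an unadjusted p under 0.05. With offsets for gene length ISL2 kept its call at a log2 fold change of 0.43 (adjusted p = 0.034). Among the 1213 tested genes of 972 to 1188 nt the median was 0.10 on the log2 scale, and 6.68% rose.

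RAX lies on chromosome 24 (58437101 to 58441135). Its reads numbered 21, 19 and 30 in prepuberty and 42, 43 and 43 in puberty, so the groups did not overlap. The fitted difference was 1.82-fold (log2 fold change 0.86, SE 0.32, 95% interval 0.13 to 1.60), which did not pass over all genes (edgeR adjusted p = 0.12, and 0.060 to 0.25 over the alternatives). RAX and ISL2 were the 2 members of 10 with groups that did not overlap, and 34.8% of all tested genes had such groups. LHX3, also at low counts, had 21, 34 and 23 reads in prepuberty and 11, 26 and 14 in puberty, with overlapping groups. Its estimate was -0.59 on the log2 scale (95% interval -1.59 to 0.41, adjusted p = 0.41). As a ratio that interval runs from 0.33 to 1.33, so no direction could be resolved at this depth.

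The abundant members were measured closely, and their intervals give the range of change between stages for the fit without length offsets. CRX, on chromosome 18 (55746913 to 55750529), had a log2 fold change of -0.12 (95% interval -0.38 to 0.14, adjusted p = 0.53). OTX2, on chromosome 10 (34027014 to 34037828), had -0.09 (-0.32 to 0.15, adjusted p = 0.64). The estimate for NEUROD1 was -0.20 (-0.56 to 0.16, adjusted p = 0.43). As ratios of puberty to prepuberty these intervals run from 0.77 to 1.1 for CRX, from 0.80 to 1.11 for OTX2 and from 0.68 to 1.11 for NEUROD1. LHX4, on chromosome 16 (59998269 to 60043908), had 0.19 (-0.08 to 0.45, adjusted p = 0.32) and LHX9, on the same chromosome (75434131 to 75450652), had -0.13 (-0.37 to 0.11, adjusted p = 0.47). BSX and PAX6 are both on chromosome 15, at 48729660 to 48733501 and 20335297 to 20356512. BSX had -0.11 (-0.50 to 0.29, adjusted p = 0.72) and PAX6 0.09 (-0.19 to 0.38, adjusted p = 0.67). With offsets for gene length the estimates of the shorter genes CRX, NEUROD1 and BSX were -0.21, -0.28 and -0.22, and that of OTX2 was -0.01, none of them called.

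**Figure D3:**
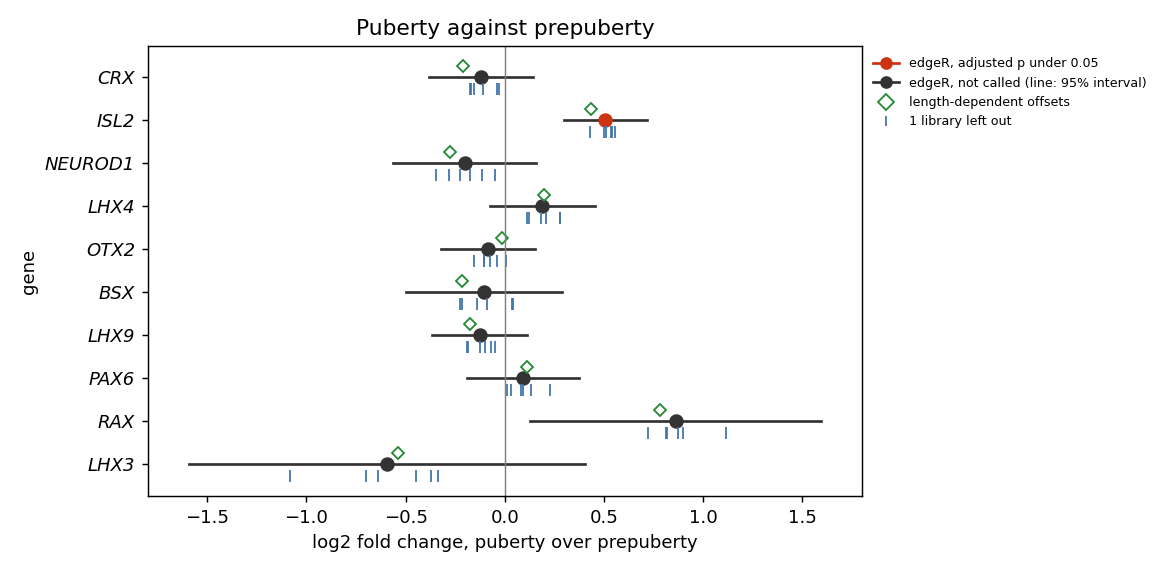
Log2 fold change of each member, puberty over prepuberty, from edgeR with 95% intervals (circles and lines, red where the adjusted p is under 0.05), with offsets for gene length (diamonds) and with 1 library left out (ticks). ISL2 alone is called, at 0.51, and RAX has a larger estimate of 0.86 with a wider interval.

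Relative to its fellow members ISL2 took a larger share in puberty. It made up 13.6% to 14.0% of the summed FPKM of the 10 genes in prepuberty and 17.6% to 20.9% in puberty, while CRX made up 45.6% to 50.9% and then 43.4% to 45.2%. The ratio of ISL2 to CRX went from 0.284 ± 0.021 to 0.439 ± 0.047 (SD, n = 3 per stage), with groups that did not overlap (exact two-sided permutation p = 0.10, the smallest that 3 against 3 libraries allow, and adjusted p = 0.13 over the 4 ratios examined). ISL2 was below NEUROD1 in 2 of 3 prepuberty libraries and above it in all 3 puberty libraries. Their ratio was 0.942 ± 0.101 and then 1.57 ± 0.343 (exact permutation p = 0.10, adjusted p = 0.13). The ratio of ISL2 to LHX4 overlapped between stages (exact permutation p = 0.20, adjusted p = 0.20). These ratios use the same ISL2 values as the test above and add no independent evidence.

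Puberty replicate 2 carried the lowest values of 4 members, CRX, NEUROD1, BSX and LHX9. Its deviations from the mean of the 6 libraries were -0.25 for CRX, -0.45 for NEUROD1, -0.38 for BSX and -0.18 for LHX9 on the log2 CPM scale. The same library had the highest PAX6 and RAX values, with deviations of 0.20 and 0.51. Without it the log2 fold changes of CRX, NEUROD1, BSX and LHX9 were -0.03, -0.05, 0.04 and -0.07, and ISL2 stayed called at 0.54 (adjusted p = 0.043). This library also stood apart in TTR, a transcript of the choroid plexus, an epithelium of the neighbouring ventricle that is known to express OTX2. TTR encodes the main secreted protein of that epithelium, and its level there was 22251 FPKM against 165 to 1021 FPKM in the other 5 libraries. Of 20 listed choroid plexus genes 15 had a symbol and 12 were tested, and their summed level was 534 to 815 CPM in prepuberty and 675 to 10720 CPM in puberty. TTR alone gave 10089 CPM of the highest sum, and the other 14 genes with a symbol summed to 631 CPM in puberty replicate 2 and to 459 to 526 CPM in the other libraries. No listed marker with a symbol was at 0 in all libraries, and KL, which encodes Klotho, had 5.64 FPKM in that library and at most 0.46 FPKM elsewhere. OTX2 in that library, at 567 CPM, lay within the 450.0 to 573 CPM of the other libraries. The part of these cells in the values of the members was not tested.

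**Figure D4:**
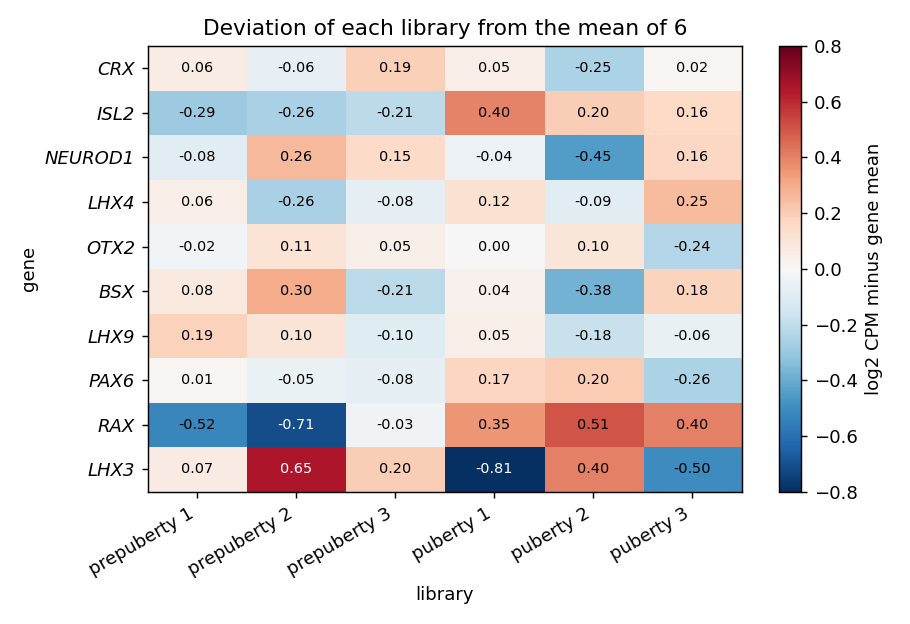
Deviation of each library from the mean of the 6 libraries, in log2 CPM, for each member (rows) and library (columns), with red above and blue below the mean. ISL2 is negative in all 3 prepuberty and positive in all 3 puberty libraries, and puberty replicate 2 holds the lowest values of CRX, NEUROD1, BSX and LHX9.

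Cofactors and partners of these factors were looked at next. Of 22 listed genes 19 were tested, and 1 rose and 5 fell, beside 5.85% and 5.64% of all tested genes. The median log2 fold change was -0.00, beside 0.01 for all tested genes. LDB1, the adaptor that joins LIM homeodomain proteins into larger complexes, was even, between 66.7 and 76.1 FPKM (log2 fold change 0.06, adjusted p = 0.66). LMO1, a LIM-only protein that competes for LDB1, rose 2.12-fold, from 22.4, 18.2 and 32.1 FPKM to 61.3, 54.6 and 38.5 FPKM (adjusted p = 0.036). TCF12 and TCF4, E proteins that pair with NEUROD1, fell 1.38-fold each, TCF12 from 35.3 ± 1.02 to 25.6 ± 2.34 FPKM and TCF4 from 11.0 ± 1.19 to 7.99 ± 0.253 FPKM (SD, n = 3; adjusted p = 0.020 and 0.031). TCF3, another E protein gene, was not called (-0.16, adjusted p = 0.32). The coactivator acetyltransferase genes CREBBP and EP300 fell 1.32-fold and 1.34-fold (adjusted p = 0.016 and 0.017), and the zinc finger gene SP4, which acts with CRX in photoreceptors, fell 1.26-fold (adjusted p = 0.032). LMO1 and SP4 were singled out after their values were seen.

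With offsets for length 5 of these 6 calls were lost, in a fit where the calls over all genes went from 971 higher and 935 lower to 471 and 457. CREBBP and EP300 have listed lengths of 8273 and 7279 nt, SP4 of 5730 nt, TCF4 of 3707 nt, TCF12 of 2266 nt and LMO1 of 1062 nt. TCF12 stayed called with the offsets (log2 fold change -0.43, adjusted p = 0.035). LMO1 then had 1.01 (adjusted p = 0.058), EP300 -0.25 (adjusted p = 0.093), CREBBP -0.21 (adjusted p = 0.13), TCF4 -0.38 (adjusted p = 0.071) and SP4 -0.22 (adjusted p = 0.12). Of the 5 that fell, 0 were called without prepuberty replicate 1 or without puberty replicate 2, and 3 or 4 without any other library. Over all genes, the fit without prepuberty replicate 1 called 0 of 16821. The fit without puberty replicate 2 called 268 higher and 263 lower of 16871. The single rise was called in the fits without prepuberty replicate 3 or puberty replicate 3 and in none of the other 4.

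**Figure D5:**
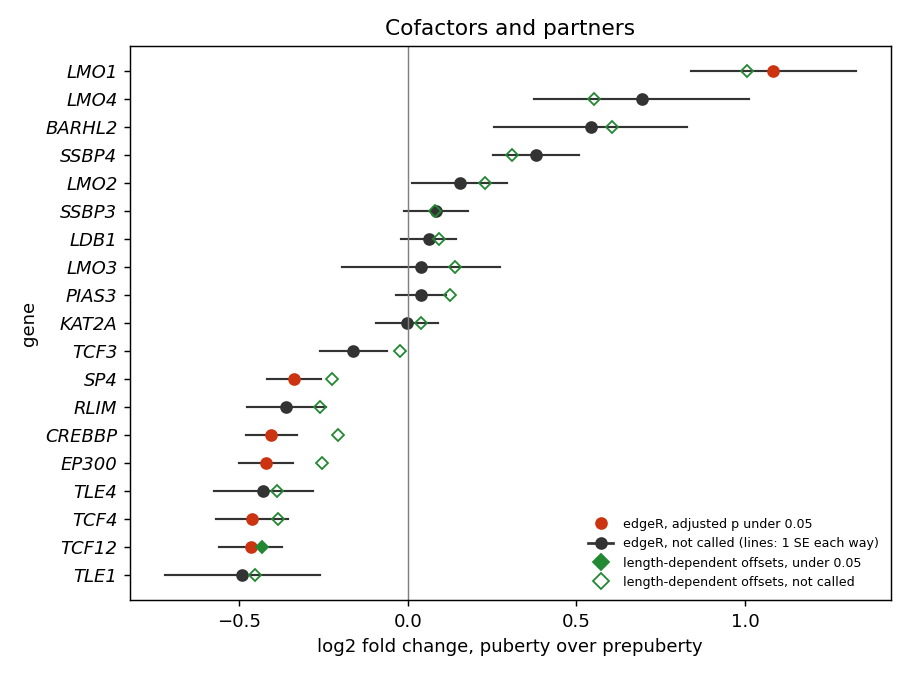
Log2 fold change, puberty over prepuberty, of the 19 tested cofactor and partner genes from edgeR (circles with 1 SE each way, red where the adjusted p is under 0.05) and with offsets for gene length (diamonds, filled where called). With the offsets TCF12 alone is called, and CREBBP and EP300 move from -0.40 and -0.42 to -0.21 and -0.25.

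Among other regulators of the photoreceptor lineage RORB was the single call. Of 25 listed genes 23 had a symbol and 16 were tested, and 0 rose and 1 fell by edgeR, a share near the 11.5% of all tested genes called in either direction. DESeq2 and limma-voom gave the same counts. At an unadjusted p under 0.05 there were 0 higher and 1 lower, beside 14.5% and 14.5% of all tested genes. RORB, the retinoid-related orphan receptor of retina and pineal gland, fell 1.51-fold, from 29.0, 33.8 and 31.0 FPKM to 22.1, 18.7 and 21.5 FPKM (adjusted p = 0.016, and 0.027 with offsets for length). Without prepuberty replicate 1 its adjusted p was 0.061, in a fit where edgeR called 0 of 16821 genes and the lowest adjusted p was 0.061. NRL, which directs the rod fate, had 11.9 to 32.8 FPKM and a log2 fold change of -0.01 (adjusted p = 0.99). NR2E3, its partner in rods, was at 0.12 FPKM or less in 5 libraries and at 1.19 FPKM in puberty replicate 2, and was not tested. RXRG, a retinoid receptor of cones, was abundant at 220.4 ± 24.3 FPKM (SD, n = 6; log2 fold change 0.11, adjusted p = 0.58).

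Genes known as targets of CRX and OTX2 in the retina or pineal gland were called by edgeR at a share near that of all tested genes. That share was 5.85% higher and 5.64% lower. Of 43 listed genes 41 had a symbol and 36 were tested, and 2 rose and 1 fell, with a median log2 fold change of 0.05. DESeq2 called more of all genes, 1400 higher and 1303 lower (8.81% and 8.2% of 15883). It called 5 targets higher and 4 lower, shares above those of all genes in that fit. UNC119, which carries lipid-modified signalling proteins, rose 1.29-fold from 1772 ± 92.3 to 2293 ± 80.7 FPKM (SD, n = 3; adjusted p = 0.038). MPP4, a scaffold of photoreceptor membranes, rose 1.42-fold (adjusted p = 0.040). RBP3, which encodes the retinoid carrier of the retina, fell 1.56-fold from 15.5 ± 3.1 to 9.93 ± 1.46 FPKM (adjusted p = 0.040). With offsets for length MPP4 kept its call (log2 fold change 0.53, adjusted p = 0.047). UNC119 went from 0.37 to 0.23 on the log2 scale (adjusted p = 0.16) and RBP3 from -0.64 to -0.56 (adjusted p = 0.079). When 1 library was left out, MPP4 was called without puberty replicate 2 (adjusted p = 0.043), and UNC119 and RBP3 were called in none of the 6 fits. Of these, the fit without prepuberty replicate 1 called 0 of 16821 genes. The arrestin gene SAG and the calcium sensor gene RCVRN, at 1041 ± 162 and 1135 ± 160.4 FPKM (SD, n = 6), stood at the level of CRX. Neither was called, with log2 fold changes of 0.32 for SAG (adjusted p = 0.15) and -0.13 for RCVRN (adjusted p = 0.61).

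One target, OPN1SW, singled out after its values were seen, varied far more than CRX and OTX2, and it was not alone in this. Among other listed targets GNGT1 ran from 108 to 884 FPKM, GNGT2 from 228 to 840 FPKM and GNAT1 from 4.98 to 34.5 FPKM. The cone opsin gene OPN1SW measured 141, 12.9 and 1185 FPKM in prepuberty and 14.6, 26.8 and 6.92 FPKM in puberty. Prepuberty replicate 3 alone held most of its reads, and the groups overlapped (log2 fold change -4.80, SE 1.86, adjusted p = 0.18). In that library CRX was at its highest, 1101 FPKM, and OTX2 at 159 FPKM, close to its own mean.

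As a description, members were set beside the 11619 other named genes of at least 1 CPM by Pearson's r of log2 CPM over the 6 libraries, which share depth and stage. The genes most like CRX were CADM1 (r = 0.99) and MIIP (r = 0.99), and those most like NEUROD1 were GYS1 and SUPT7L (r = 0.995 and 0.995). ISL2 was matched by EMC8 and AAMP (r = 0.996 and 0.994), and LHX4 by FRA10AC1 and ORMDL3 (r = 0.98 and 0.98). BSX went with GGCX and MCC (r = 0.99 and 0.99), LHX9 with VAMP3 and PM20D2 (r = 0.98 and 0.98), PAX6 with NXPH4 and RIOX2 (r = 0.996 and 0.99), RAX with COMMD9 and OGFOD3 (r = 0.99 and 0.99) and LHX3 with AGRN and ELAVL4 (r = 0.99 and 0.99). With 6 points and this many genes, high values are common: 181 genes exceeded 0.95 for ISL2 and 10 to 94 for the other members.

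Markers of other cells that the gland could hold differed in places between stages, in the fit without offsets for gene length. The astrocyte and interstitial glia list, cells that can express PAX6, had a summed level of 5398 to 7217 CPM in prepuberty and 7854 to 7956 CPM in puberty. Much of it was GFAP, which was not called (adjusted p = 0.078). GFAP averaged 1763 FPKM in prepuberty and 2515 FPKM in puberty, of list sums of 3373 to 4703 and 4973 to 5226 FPKM. Estimates were above 0 for 13 of 18 genes, beside 8396 of all 16588 tested genes, and below 0 for AQP4, SLC1A2, GJA1, SLC4A4 and AGT. At an unadjusted p under 0.05, 8 were higher and 1 lower, where all tested genes had 14.5% and 14.5%. By edgeR 3 of 18 were called higher and 0 lower, beside 5.85% and 5.64% of all tested genes. The 3 were ALDH1L1 (1.53-fold), ID4 (1.45-fold) and ALDOC (1.29-fold). PAX6 itself was lowest in puberty replicate 3 and highest in puberty replicate 2. In the choroid plexus list 12 genes were tested, and MSX1 (1.29-fold) and CLDN1 (2.97-fold) rose. TRPM3 alone fell, 1.25-fold. These 2 rises and 1 fall stand beside 5.85% and 5.64% of all tested genes. CLDN1 had 7.47, 19.98 and 9.67 CPM in the puberty libraries, highest in puberty replicate 2, the library with the high TTR. Of 10 tested genes of dividing cells CENPF, TOP2A and KIF11 fell 4.45-fold, 3.91-fold and 4.10-fold, KIF11 on 11 to 83 reads a library. These were the 3 called lower, beside 5.64% of all tested genes, and 0 were called higher. At an unadjusted p under 0.05, 5 were lower and 0 higher, and the median log2 fold change was -0.64. The list was not uniform: PCNA (0.04), MCM2 (-0.07), MCM5 (0.13) and MCM6 (-0.13) were not called, and 2 of the 10 estimates were above 0. In the microglia and macrophage list edgeR called 1 of 14 tested genes higher, TYROBP (2.22-fold), and 0 lower, beside 5.85% and 5.64% of all tested genes. All 14 had estimates above 0, beside 8396 of all 16588 tested genes. At an unadjusted p under 0.05, 8 of them were higher, beside 14.5% of all tested genes. Their median log2 fold change was 0.65. The summed level of that list was 249.7, 333.01 and 214.5 CPM in prepuberty and 249.1, 435.7 and 474.9 CPM in puberty, so the stages overlapped. In the list of endothelium, pericyte and meninges SLC47A1 fell 2.83-fold, the only one of 14 at an unadjusted p under 0.05. By edgeR 0 of 17 genes of habenula and neurons were called, with 3 higher and 1 lower at an unadjusted p under 0.05. Of 12 genes of oligodendrocyte and Schwann cell 0 were called, with 2 higher and 4 lower at that level. The part of these cells in the members' values was not tested.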

How the data were processed

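Counts are whole-number reads per gene, deposited by the authors without normalization. FPKM values were made by the authors, and each equalled the count divided by listed length and multiplied by 1 constant per library, inversely proportional to DESeq2's size factor (largest relative deviation 5.11e-15). Per the submitters' processing notes the tools, given without roles, included HISAT2 2.0.5 and featureCounts 1.5.0-p3, beside DESeq2 1.20.0, fastp and CASAVA 1.8; the notes name the human builds GRCh38 and hg38, while the identifiers are goat Ensembl. Coordinates are as the authors' table lists them, with no build named, and the strand setting of the counting was not given in the sources used here.

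Genes passed edgeR's filterByExpr (minimum count 10) followed by TMM scaling and the robust quasi-likelihood F test of edgeR 4.0.16 in R 4.3.3, with no covariate. Log2 CPM used a prior count of 2, and standard errors came from the fold change and F. The code was tested on simulated data. Alternatives were RLE scaling, 2 other filters, DESeq2 1.42.0, limma-voom and limma (3.58.1) on log2(FPKM + 1) and log2(FPKM + 0.1), which understates changes of low genes, a replicate block, per-library loess offsets on gene length (span 0.3), and each library left out. Members, 11 lists and tests were chosen with earlier results of these data known. Named genes are all members, up to 4 called genes of each list by smallest p, the 2 most alike genes (for OTX2 not reported here), TPH1 and ASMT, while relatives and any other gene named outside this rule were chosen after their values were seen. AANAT and LHX2 matched no symbol and were not analysed here.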

Additional observations from a re-analysis of the deposited data

How the results depend on the processing

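Of 150 log2 fold changes of the 10 members under alternatives, 145 kept direction and side of the threshold, 2 lost the call and 3 changed sign. Both losses were ISL2, with the replicate number as a block (adjusted p = 0.050, just over the threshold) and without prepuberty replicate 1. Leaving out 1 library gave -0.156 to 0.00595 for OTX2 (above 0 without puberty replicate 3) and -0.226 to 0.0404 for BSX (above 0 without prepuberty replicate 2 or puberty replicate 2), and 0 to 1 members called higher. The labels do not state whether the replicate number pairs the libraries. Deviations of same-numbered libraries correlated at 0.05, -0.10 and -0.10 across genes, and those of differently numbered libraries at -0.03 to 0.12. With 3 libraries per stage these values cannot settle it. With the replicate block 0 members were called higher, and of all genes 366 rose and 354 fell in place of 971 and 935. DESeq2 gave 1400 and 1303, and length offsets 471 and 457. Without puberty replicate 2 these were 268 and 263, without prepuberty replicate 3 273 and 290, without puberty replicate 1 373 and 436, without prepuberty replicate 2 527 and 513, and without puberty replicate 3 728 and 540. In CPM 4 neighbouring pairs were ordered in every library in place of 7; no other setting changed that count.

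List counts under these settings were computed after the data were seen. Cofactors called lower numbered 0 with the replicate block, 1 with length offsets and 3 in both FPKM tests, and 0 to 4 with 1 library left out. Cofactors called higher were 0 with the block, with length offsets and without a count filter, and 0 to 1 with 1 library left out. CRX and OTX2 targets called higher were 5 with DESeq2 and 1 with the block, length offsets and both FPKM tests, and 0 to 1 with 1 library left out. Targets called lower were 4 with DESeq2 and 0 with the block, length offsets, both FPKM tests and any 1 library left out. Photoreceptor-lineage regulators called lower were 0 to 1 with 1 library left out. Depth limits RAX and LHX3, with at most 43 reads a library.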
